A study of Mus musculus with 10 samples.

Results

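The 8 genes described here encode the pore-forming alpha-1 subunits of the voltage-gated calcium channels of neurons: Cacna1a, Cacna1b, Cacna1c, Cacna1d, Cacna1e, Cacna1g, Cacna1h and Cacna1i. They were picked out by their symbols, with no threshold on a measured value, and are 8 of the 24837 genes in the table. Their counts were taken from single-nucleus RNA sequencing of hippocampi, taken from unstimulated wild-type mice (C57B/6J) at an age of 4 to 7 months. The labels list 10 samples in 1 group. The titles of 4 samples name them RNASET2 controls, with characteristics like those of the other 6. No genotype, treatment or time was compared, so the genes are described across cell classes.

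An alpha-1 subunit forms the calcium pore and its voltage sensor, and auxiliary beta, alpha-2-delta and gamma subunits modify its traffic and gating. L-type channels (Cacna1c, Cacna1d) sit mainly on cell bodies and dendrites and couple depolarisation to calcium-dependent transcription. P/Q-type (Cacna1a), N-type (Cacna1b) and R-type (Cacna1e) channels admit the calcium that triggers transmitter release, and R-type channels also act in dendritic spines. T-type channels (Cacna1g, Cacna1h, Cacna1i) open near the resting potential and shape bursts and rebound firing.

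All nuclei were deposited as 1 count matrix with no map from nuclei to samples. Barcodes carry 7 suffixes, called barcode sets 1 to 7, which no label ties to a sample, and 21 barcode sequences occur in more than 1 set. The whole matrix was therefore 1 sample without replicates. No p-value is given, and every 95% interval covers counting error only. Levels are UMIs (unique molecular identifiers, 1 per captured transcript) per 1000000 UMIs of a class, called CPM, and a 2-fold difference is used as a rule of size. Of 15661 barcodes, 15560 held at least 500 UMIs, and 15247 nuclei remained after filters and doublet removal. Median UMIs per nucleus lay between 1088 and 8194 in the 7 sets. Set 6 held 1 named non-neuronal nucleus. Set 7 held 40 Cajal-Retzius cells and no other named neuron.

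Classes were named from marker genes, with all calcium channel genes kept out of the clustering, and each name stands for nuclei like that type. The markers that gave the names are described here, so their levels are no separate check of hippocampal identity. Prox1, Dsp and Plk5 were high in all 3 dentate granule clusters. Fibcd1, Mpped1 and Spink8 were high in all 3 CA1 clusters, and Grik4 and Cpne4 in both CA2/CA3 clusters. Other listed markers were not high throughout. C1ql2 was high only in the granule cluster that it led, and Wfs1 was not high in the CA1 cluster led by Dcn. Rgs14 and Amigo2 were high only in the smaller CA2/CA3 cluster, Iyd and Nectin3 only in the larger, and Coch in neither. Neurons numbered 9897 and non-neuronal nuclei 3397, and the 112 Cajal-Retzius cells, an early-born neuron type, were counted in neither. A further 1841 nuclei (12.1%) stayed unnamed, of which 739 were in set 1. Subicular- or cortical-type neurons, 1490 nuclei, were part of the tissue, so cells of neighbouring cortex or subiculum cannot be told apart from hippocampal dissection.

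Promoter sequences are shown for the 3 members with a single entry in the RefSeq promoter table (build GRCm38.p6, 250 bases before to 50 after the start). The table holds 5 of the 8 members, and Cacna1c and Cacna1d have several entries. Of these 3, Cacna1e and Cacna1i were at least 2-fold higher in excitatory than in inhibitory neurons. Cacna1b was higher in inhibitory neurons, but within 2-fold. A link between promoter letters and these levels was not tested. Capitals mark matches to the letters searched. For the GC box these were GGGCGG. For the core of the cAMP response element, called the CRE core here, they were TGACG. For an E-box of the NeuroD type they were CAGATG, and for the TATA box they were TATAAA, always with both strands searched.
Cacna1e, chr1:154725871-154726170, minus strand: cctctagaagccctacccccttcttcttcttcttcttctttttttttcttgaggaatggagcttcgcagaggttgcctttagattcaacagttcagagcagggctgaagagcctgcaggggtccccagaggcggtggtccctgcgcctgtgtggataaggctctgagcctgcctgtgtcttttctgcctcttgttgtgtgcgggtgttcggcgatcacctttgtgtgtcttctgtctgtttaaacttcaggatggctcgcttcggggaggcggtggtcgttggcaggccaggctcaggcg
Cacna1i, chr15:80286988-80287287, plus strand: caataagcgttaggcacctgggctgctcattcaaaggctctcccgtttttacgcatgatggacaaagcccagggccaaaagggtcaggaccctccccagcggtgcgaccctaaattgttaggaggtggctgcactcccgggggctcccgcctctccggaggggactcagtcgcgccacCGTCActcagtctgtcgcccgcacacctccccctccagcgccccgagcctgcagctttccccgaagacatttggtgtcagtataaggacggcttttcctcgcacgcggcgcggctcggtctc
Cacna1b, chr2:24763103-24763402, minus strand: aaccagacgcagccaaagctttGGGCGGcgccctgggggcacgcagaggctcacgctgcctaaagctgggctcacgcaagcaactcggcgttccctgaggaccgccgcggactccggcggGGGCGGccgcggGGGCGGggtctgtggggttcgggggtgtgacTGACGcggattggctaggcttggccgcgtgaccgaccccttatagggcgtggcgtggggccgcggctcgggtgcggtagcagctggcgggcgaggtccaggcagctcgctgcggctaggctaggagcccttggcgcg

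The Cacna1b window was the richest of these 3 in GC (72.3%) and held 35 CpG dinucleotides, 3 GC boxes and 1 CRE core. Cacna1i had 62.7% GC, 23 CpG and 1 CRE core, read on the opposite strand. Cacna1e had 55.3% GC, 11 CpG and none of the 4 motifs, and its window lies inside the GENCODE M21 span of the gene rather than at its outer end. Among all 32544 windows of this length, the median was 53% GC and 7 CpG. GC boxes occurred in 35.9% of them, CRE cores in 20.9%, E-boxes in 17.1% and TATA boxes in 13.6%. A match is a description of the letters in these windows and no evidence of binding.

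The genes differ in size, which matters for counts from nuclear RNA. Their identifiers in the table were ENSMUSG00000051331 (Cacna1c), ENSMUSG00000015968 (Cacna1d), ENSMUSG00000034656 (Cacna1a), ENSMUSG00000004113 (Cacna1b), ENSMUSG00000004110 (Cacna1e), ENSMUSG00000020866 (Cacna1g), ENSMUSG00000024112 (Cacna1h) and ENSMUSG00000022416 (Cacna1i). In GENCODE M21 on GRCm38, Cacna1c spans 609 kb (chr6:118587240-119196418, minus strand), Cacna1e 494 kb (chr1:154390731-154884501, minus) and Cacna1d 452 kb (chr14:30039939-30491455, minus). Cacna1a spans 252 kb (chr8:84388440-84640246, plus), Cacna1b 159 kb (chr2:24603887-24763152, minus) and Cacna1i 111 kb (chr15:80287238-80398279, plus). The smallest were Cacna1g at 65.8 kb (chr11:94408391-94474198, minus) and Cacna1h at 59.5 kb (chr17:25374285-25433783, minus). Per kilobase of gene, the level in neurons was 3.58 CPM for Cacna1a, 2.57 for Cacna1e, 1.98 for Cacna1c, 1.90 for Cacna1b and 1.32 for Cacna1d. The T-type genes were lower on that scale, at 0.831 for Cacna1h, 0.550 for Cacna1g and 0.387 for Cacna1i. Per kilobase of the longest transcript, the T-type genes were again lowest, between 4.32 and 6.00 CPM, against 31.1 to 114 for the other 5. Genes on the opposite strand overlap Cacna1c (Dcp1b), Cacna1d (Chdh and Dcp1a) and Cacna1h (Tpsg1), and whether counting used the strand is not given in the sources used here.

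Neuron nuclei carried several alpha-1 genes at once. With each nucleus thinned to 1000 UMIs, CA2/CA3 pyramidal neurons had a UMI of 3.20 of the 8 genes on average, dentate granule neurons of 2.81 and CA1 pyramidal neurons of 2.56. Oligodendrocyte precursors had 1.46, microglia 0.568, astrocytes 0.397 and oligodendrocytes 0.269. Thinning left out 61 of 9897 neurons and 730 of 3397 non-neuronal nuclei that were shallower. Unthinned, neurons averaged 4.98 genes and non-neuronal nuclei 0.699, at median depths of 5833 and 1669 UMIs. The summed level of the 8 genes ranged from 312 CPM in oligodendrocytes to 6234 CPM in CA2/CA3 neurons, with 5249 in dentate granule, 3966 in CA1 and 3166 in subicular- or cortical-type neurons.

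**Figure D1:**
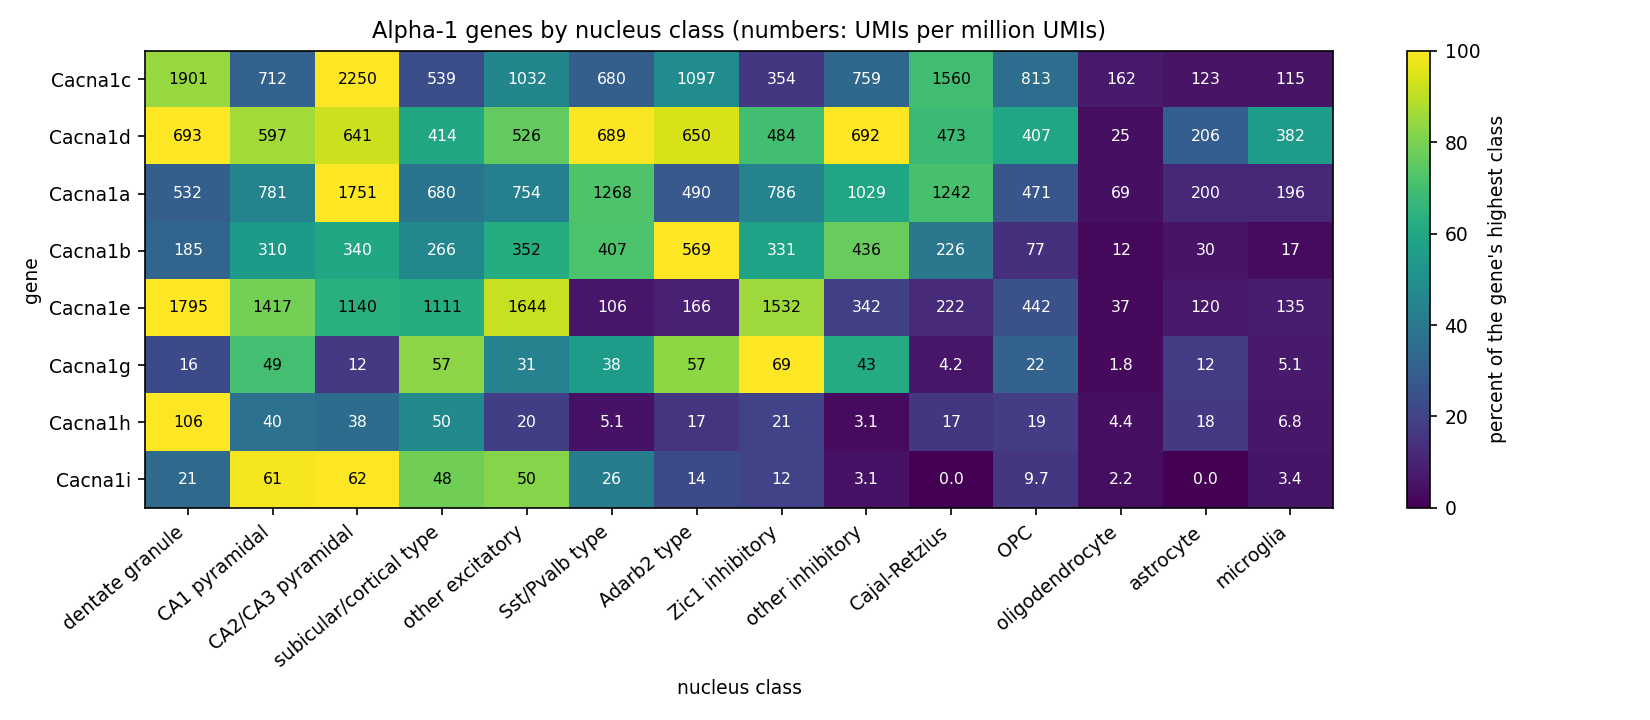
Level of each alpha-1 gene in 14 named classes of at least 50 nuclei; the number in each cell is CPM and the colour is the percent of the gene's highest class. Cacna1c and Cacna1a peak in CA2/CA3 neurons (2250 and 1751 CPM), Cacna1e and Cacna1h in dentate granule neurons and Cacna1b in Adarb2-type interneurons. Cacna1d is about level in dentate granule (693 CPM), other inhibitory (692 CPM) and Sst or Pvalb neurons (689 CPM). Cacna1g is highest in Zic1 inhibitory neurons, with an interval (61.0 to 78.0 CPM) that overlaps that of Adarb2-type interneurons (47.6 to 68.3 CPM).

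Cacna1c, the L-type subunit best known from heart and brain, had its highest level in CA2/CA3 neurons at 2250 CPM (2223 to 2277), followed by dentate granule neurons at 1901 and Cajal-Retzius cells at 1560 CPM. It stood at 1097 CPM in Adarb2-type interneurons, which carry Vip, Cnr1, Lamp5 or Ndnf. The other excitatory neurons were at 1032 CPM, oligodendrocyte precursors at 813, the other inhibitory neurons at 759, CA1 at 712, and interneurons of the Sst or Pvalb type at 680 CPM. Below them came subicular- or cortical-type neurons at 539 and Zic1 inhibitory neurons at 354 CPM. Oligodendrocytes, astrocytes and microglia were lowest, at 162, 123 and 115 CPM. The ranges over barcode sets overlapped for 8 of the 9 neighbouring pairs with sets of at least 50 nuclei on both sides. The exception was the step between Zic1 neurons and oligodendrocytes. In these orders ranges were not paired by set, so an overlap does not show that neighbours were alike. For Cacna1e, CA1 and CA2/CA3 neurons were neighbours with overlapping ranges, while CA2/CA3 neurons were lower in 6 of 6 sets.

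Cacna1d, the other L-type subunit, which opens at lower voltages, was the most even member across neurons. It lay between 414 CPM in subicular- or cortical-type neurons and 693 CPM in dentate granule neurons, and set ranges overlapped for all 9 neighbouring pairs. In single sets, dentate granule neurons had 522, 714, 742, 734, 990 and 1156 CPM in sets 1 to 6. Sets 5 and 6, the shallowest of these 6, were highest, and the part of depth in that was not tested.

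Cacna1a, the P/Q-type subunit of fast transmitter release, was led by CA2/CA3 neurons at 1751 CPM. Sst or Pvalb interneurons followed at 1268 CPM and Cajal-Retzius cells at 1242 CPM, while dentate granule neurons (532 CPM) and Adarb2-type interneurons (490 CPM) were at the low end of the neurons. Of all members, Cacna1a had the most neighbouring pairs with separate set ranges, 4 of 9, CA2/CA3 over Sst or Pvalb interneurons among them.

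Cacna1b, the N-type subunit found at many inhibitory terminals, was highest in Adarb2-type interneurons at 569 CPM. The other inhibitory neurons had 436 CPM and Sst or Pvalb interneurons 407 CPM. Dentate granule neurons, at 185 CPM, were the lowest neurons. Set ranges overlapped for 8 of 9 neighbouring pairs.

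Cacna1e, the R-type subunit, was high in all 5 excitatory classes of at least 50 nuclei, with 1795 CPM in dentate granule, 1644 in the other excitatory neurons, 1417 in CA1, 1140 in CA2/CA3 and 1111 in subicular- or cortical-type neurons. Interneurons were far apart on it. The Sst or Pvalb type had 106 CPM and the Adarb2 type 166 CPM, but Zic1 inhibitory neurons had 1532 CPM, at 1171 and 1649 CPM in sets 1 and 2, which hold most of that class.

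**Figure D2:**
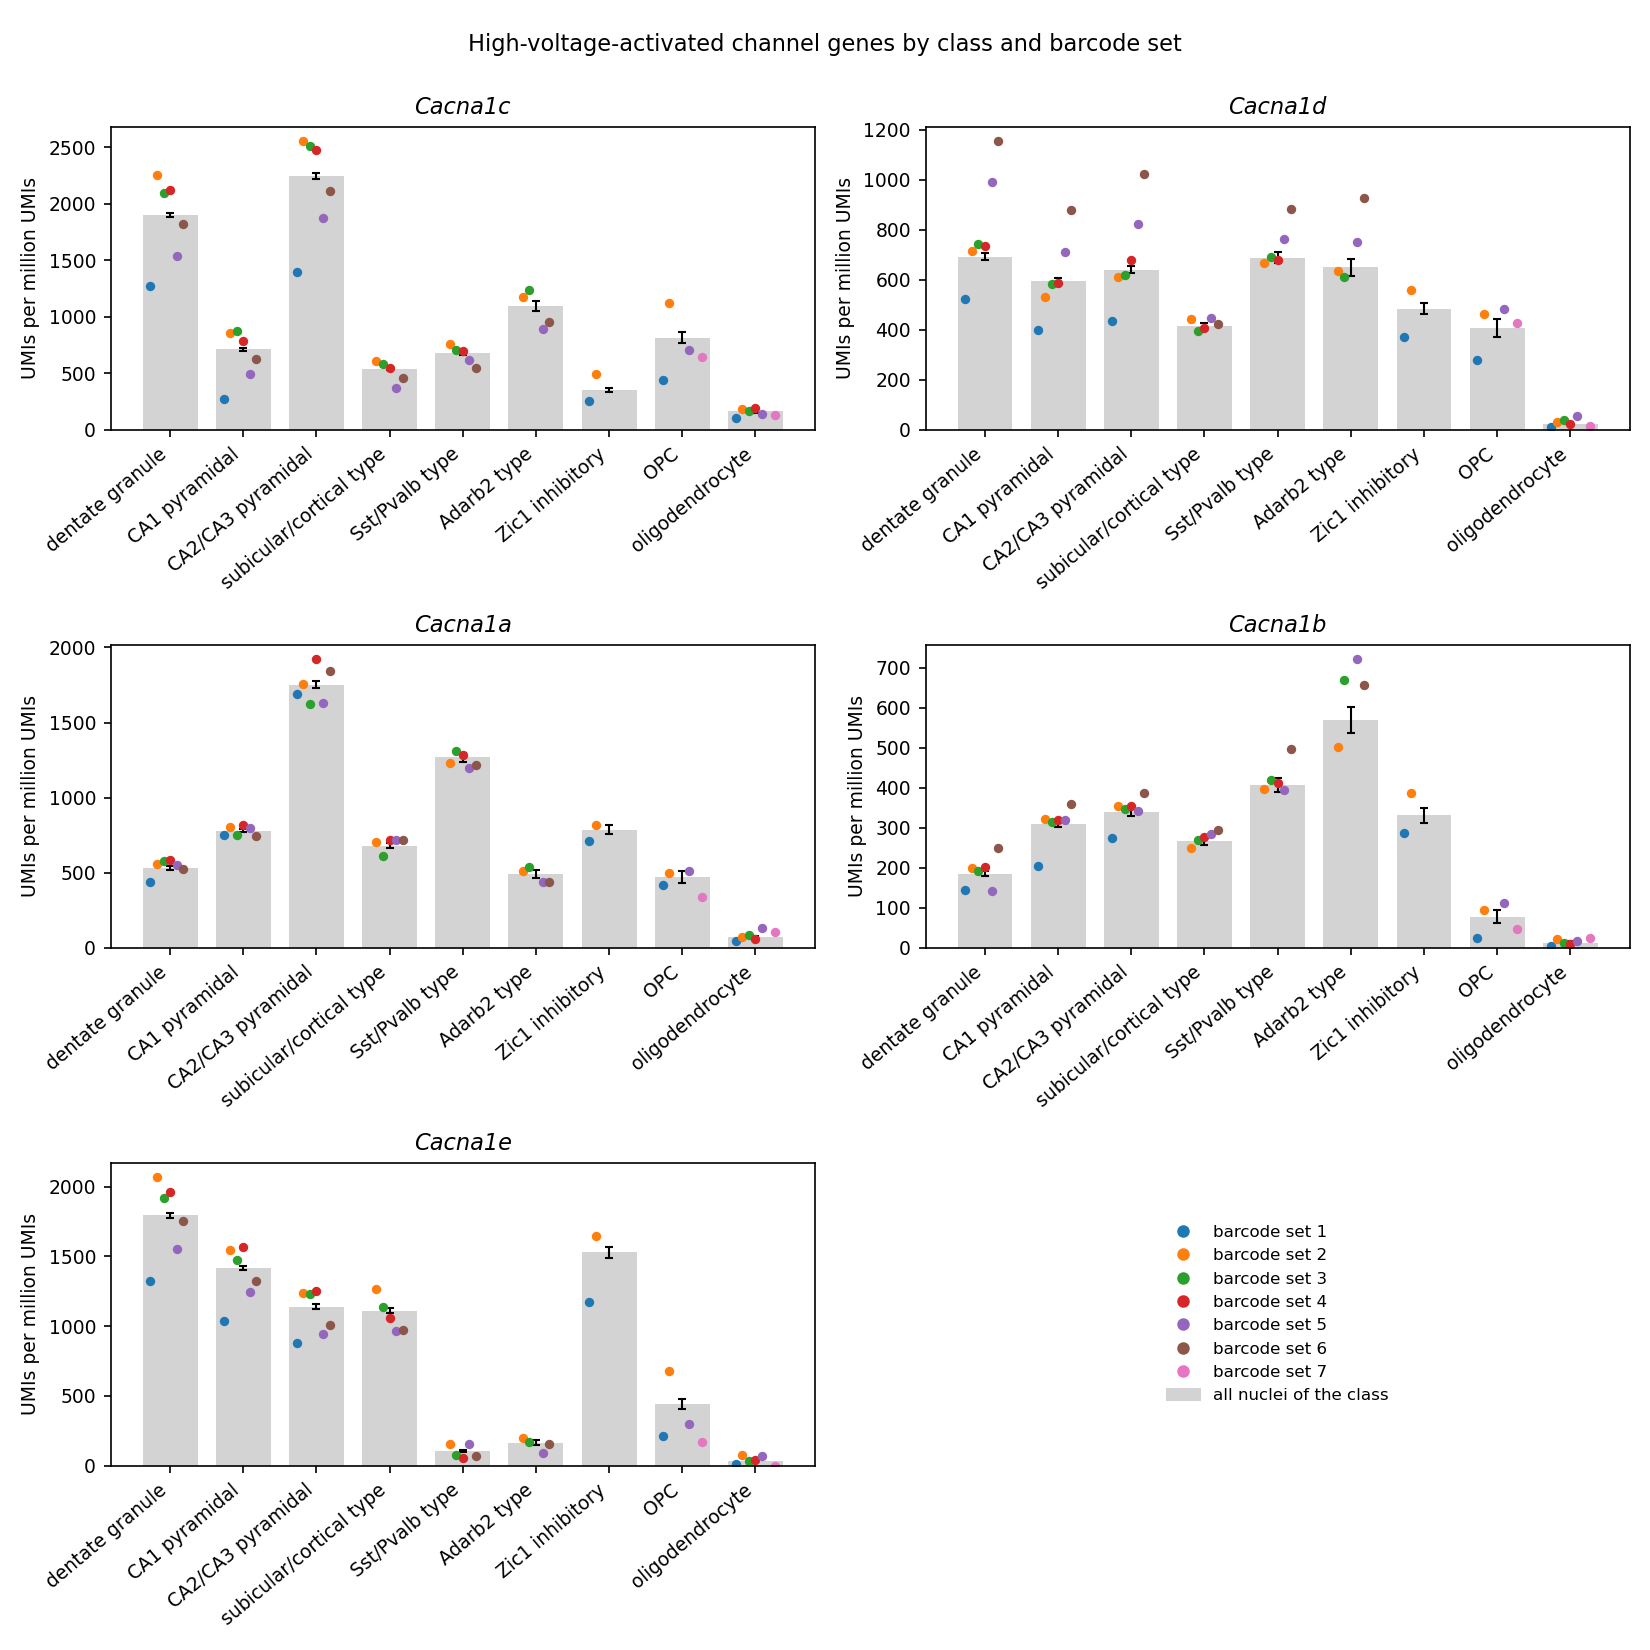
CPM of Cacna1c, Cacna1d, Cacna1a, Cacna1b and Cacna1e by class; grey bars are pooled levels with 95% counting intervals and dots are single barcode sets with at least 50 nuclei. The dots of a class spread wider than its counting interval, as for Cacna1c in CA2/CA3 neurons (1396 to 2557 CPM).

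The T-type genes had levels of at most 106 CPM in any named class and differed from each other in where they peaked. Cacna1h, whose channels are inhibited by low concentrations of nickel, was highest in dentate granule neurons at 106 CPM. Subicular- or cortical-type neurons followed at 50.3 CPM, and Sst or Pvalb interneurons had 5.08 CPM. Cacna1g, a thalamic and cerebellar burst channel, was highest in Zic1 inhibitory neurons at 69.1 CPM, then in Adarb2-type interneurons (57.3 CPM) and subicular- or cortical-type neurons (57.1 CPM). It was low in dentate granule (15.5 CPM) and CA2/CA3 neurons (11.8 CPM). Cacna1i, the slowest of the 3 T-type channels, was at 61.7 CPM in CA2/CA3 and 60.8 CPM in CA1 neurons, against 21.3 CPM in dentate granule neurons. No Cacna1i UMI was seen in Cajal-Retzius cells or astrocytes, which allows levels of up to 12.5 and 8.97 CPM by a floor of 3 counts. The upper ends of the 95% counting intervals were 15.43 and 11.02 CPM. Set ranges overlapped for 7 of 9 neighbouring pairs of Cacna1g, 9 of 10 of Cacna1h and 10 of 11 of Cacna1i.

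**Figure D3:**
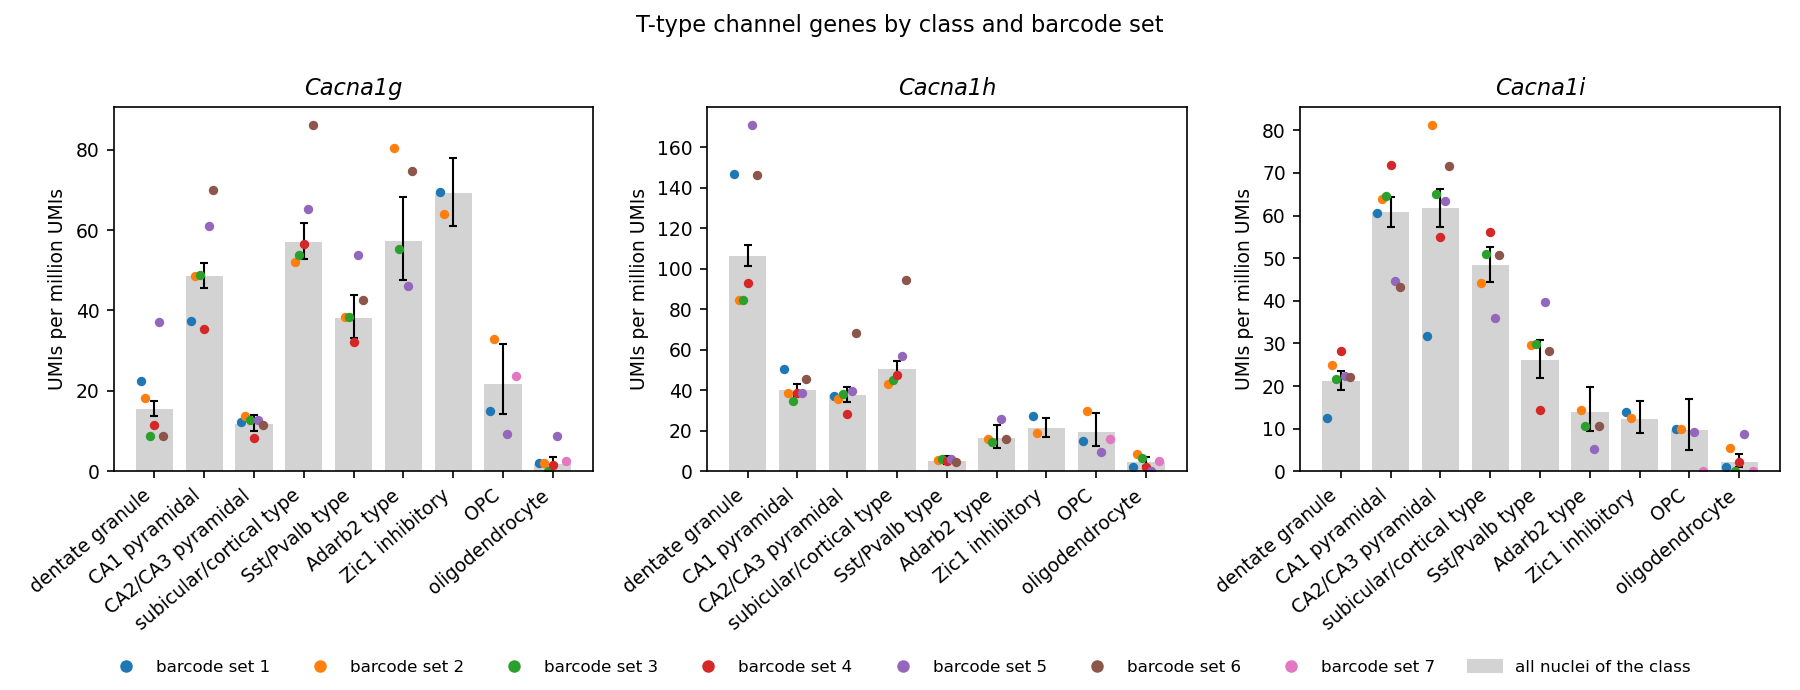
CPM of Cacna1g, Cacna1h and Cacna1i by class, with grey bars for pooled levels, 95% counting intervals and dots for single barcode sets of at least 50 nuclei. Cacna1h stands out in dentate granule neurons (106 CPM) and Cacna1i in CA1 and CA2/CA3 neurons (60.8 and 61.7 CPM).

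The first comparison asked whether the channels were neuronal. All 8 members were higher in neurons than in non-neuronal nuclei by 2-fold or more, where 18.6% of 13535 genes were so and 21.6% were lower by that much. Cacna1i was 12.05-fold higher (8.08 to 18.8, from 24 non-neuronal UMIs), Cacna1b 11.95-fold (10.28 to 13.98) and Cacna1e 10.2-fold (9.49 to 10.9). Cacna1h was 5.83-fold, Cacna1g 5.66-fold and Cacna1a 5.61-fold higher. Cacna1d and Cacna1c had the smallest ratios, 4.38 (4.11 to 4.69) and 4.28 (4.09 to 4.48). The direction was the same in 5 of 5 sets for each gene. Cacna1c had 894, 1325, 1378, 1334 and 727 CPM in neurons of sets 1 to 5, against 133, 396, 305, 299 and 387 CPM in non-neuronal nuclei, and the groups did not overlap. The median log2 ratio of the members was 2.52, and that of all genes −0.23. A further alternative put each unnamed cluster in the class with the highest mean relative marker level, although it had failed the naming rule. All 8 ratios were then smaller, and those of Cacna1c (1.92) and Cacna1d (1.95) lay under 2. It placed with non-neuronal nuclei a cluster of 130 nuclei led by Stxbp6, Glis3 and the granule marker Plk5. It also placed there, as oligodendrocytes, 514 nuclei led by the microglial marker Inpp5d.

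The subunits that accompany the alpha-1 pore went mostly the same way. Of 16 auxiliary genes, 14 had at least 100 UMIs over both sides, and 10 of these passed 2-fold upward in neurons and 2 downward. Cacng3, a gamma subunit that also escorts AMPA receptors, was 10.5-fold higher and the beta subunit gene Cacnb2 8.76-fold higher. Cacng4 was 11.3-fold lower. Of 18 measured partner genes, 14 were at least 2-fold higher, among them the active zone scaffolds Erc2 (9.42-fold) and Rimbp2 (7.33-fold) and the channel inhibitor Rem2 (9.57-fold, 2.62 to 79.6, from 2 non-neuronal UMIs).

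Excitatory neurons, 8200 nuclei, were next set against 1697 inhibitory neurons. Of the 8 members, 3 were at least 2-fold higher in excitatory neurons and none lower, against 7.12% of 13072 genes higher and 8.13% lower. Cacna1h was 4.93-fold higher (4.19 to 5.85). It had 92.3, 46.6, 49.8, 52.1, 46.3 and 71.6 CPM in excitatory neurons of sets 1 to 6, against 18.8, 11.3, 8.02, 9.18, 12.1 and 8.23 CPM in inhibitory neurons. The excitatory values lay above the inhibitory ones in all 6 sets without overlap. Cacna1i was 2.81-fold higher (2.45 to 3.24), at 48.3 CPM against 17.2 CPM, and above 1 in 6 of 6 sets.

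Cacna1e was 2.49-fold higher in excitatory neurons (2.43 to 2.55). It had 1095, 1578, 1467, 1495, 1125 and 1266 CPM in excitatory neurons of sets 1 to 6, against 790, 754, 279, 580, 171 and 121 CPM in inhibitory neurons. The excitatory values were steady and the inhibitory ones differed widely, so the ratio in single sets ran from 1.39 to 10.5. Zic1 neurons numbered 165, 160, 12, 47, 0 and 0 in those sets. Without the Zic1 class, an exclusion chosen after the data were seen, the ratio was 8.71 for Cacna1e and 7.62 for Cacna1h.

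The other 5 members were within 2-fold between these neurons. Cacna1c was just inside at a ratio of 1.99 (1.94 to 2.03), and crossed 2 when set 3, 5 or 6 was left out (2.03, 2.06 and 2.01). Its ratio in single sets ran from 1.02 to 2.81, above 1 in 6 of 6 sets. Cacna1b was 1.49-fold lower in excitatory neurons (279 CPM, against 415 CPM in inhibitory neurons) and Cacna1g 1.54-fold lower (33.2 CPM against 51.1 CPM), each in 6 of 6 sets. Cacna1a (0.919) and Cacna1d (0.949) were near 1. The members' median log2 ratio was 0.46, and that of all genes −0.10.

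Larger differences lay in the auxiliary genes. Cacna2d2, an alpha-2-delta subunit that binds gabapentin, was 31.7-fold lower in excitatory neurons, at 7.87 CPM, against 249.5 CPM in inhibitory neurons. Cacng4 was 29.95-fold lower and Cacng5 5.76-fold lower. In all, 1 of 14 measured auxiliary genes was at least 2-fold higher and 3 lower, and 2 of 18 partner genes higher and 1 lower. The partner genes past the size rule were Ppp3ca, the catalytic subunit of calcineurin (2.23-fold higher), Rem2 (2.004-fold higher) and Stac2 (3.71-fold lower).

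**Figure D4:**
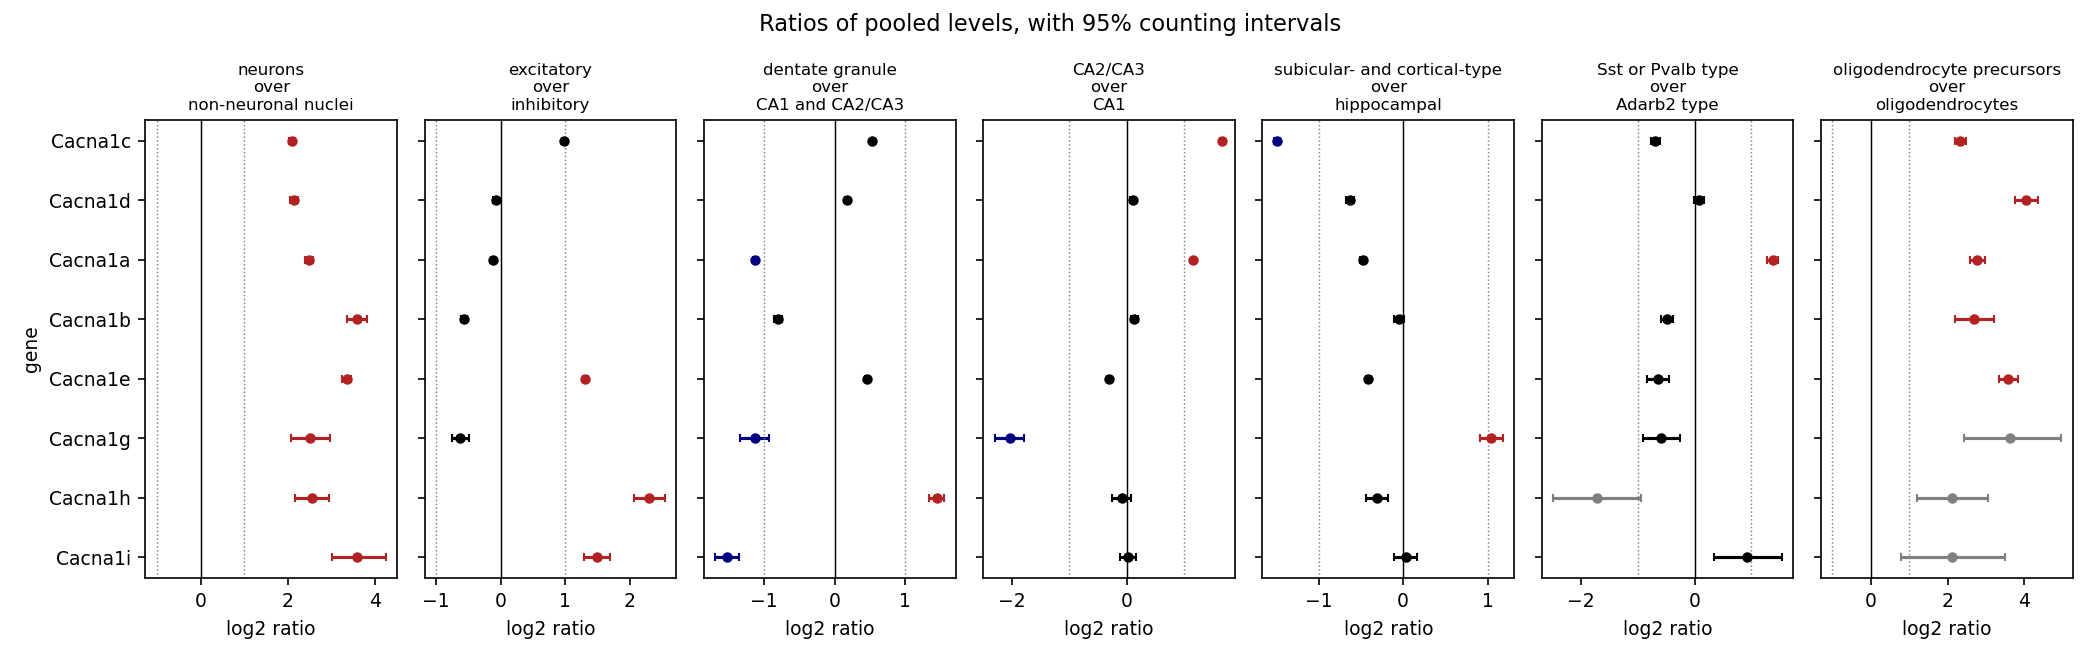
Log2 ratio of each alpha-1 gene in 7 comparisons with 95% counting intervals, where a positive value is higher in the first-named class; red marks at least 2-fold higher, navy at least 2-fold lower, black within 2-fold and grey under 100 UMIs over both sides. All 8 genes are higher in neurons than in non-neuronal nuclei, while the comparisons among neuron classes go both ways.

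Within the hippocampal circuit, 2412 dentate granule neurons, whose mossy fibres excite CA3, were compared with 3759 CA1 and CA2/CA3 pyramidal neurons. Of the 8 members, 1 was at least 2-fold higher in granule neurons and 3 lower, against 6.35% of 11919 genes higher and 8.69% lower. Cacna1h was 2.72-fold higher (2.52 to 2.93). It had 147, 84.5, 84.7, 92.8, 171 and 146 CPM in granule neurons of sets 1 to 6, against 44.0, 37.5, 36.2, 34.3, 38.7 and 52.3 CPM in pyramidal neurons. Granule neurons were higher in all 6 sets without overlap.

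The members lower in granule neurons were Cacna1i (2.87-fold, at 21.3 CPM, against 61.2 CPM in pyramidal neurons), Cacna1g (2.20-fold, 15.5 CPM against 34.2 CPM) and Cacna1a (2.18-fold). Cacna1a had 436, 556, 576, 582, 551 and 521 CPM in granule neurons of sets 1 to 6, against 1209, 1177, 1098, 1278, 1025 and 1071 CPM in pyramidal neurons. The groups did not overlap for Cacna1a, and it was 1.95-fold lower with each nucleus thinned to 1000 UMIs. With clusters at resolution 0.5, none was named CA2/CA3, so the pyramidal side was CA1 alone. Against CA1 alone, Cacna1a was 1.46-fold lower and Cacna1c 2.66-fold higher in granule neurons. For Cacna1g the fold in single sets ran from 1.12 to 5.94 lower, with 5 and 6 granule UMIs in sets 5 and 6, and was 1.93 without set 3. Cacna1c (1.45-fold) and Cacna1e (1.37-fold) were higher in granule neurons in 6 of 6 sets but within 2-fold, and Cacna1b was 1.74-fold lower.

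Of the other calcium channel genes, 1 of 13 measured auxiliary genes was at least 2-fold higher in granule neurons and 2 lower, and 0 of 18 partner genes were higher and 4 lower. Cacna2d3 was 2.20-fold lower, at 697 CPM, against 1533 CPM in pyramidal neurons. Cacna2d2 was 2.32-fold lower and Cacng5 2.67-fold higher. The largest partner differences were in Rem2 (a ratio of 0.0222, 0.00266 to 0.0813, from 2 granule and 170 pyramidal UMIs), Stac2 (9.21-fold lower) and Kcnn2, a calcium-activated potassium channel that follows calcium entry (5.51-fold lower, 148 CPM against 816 CPM).

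The pyramidal fields differed from each other as well. In 1029 CA2/CA3 neurons, set against 2730 CA1 neurons, 2 members were at least 2-fold higher and 1 lower, with 4.21% of 11085 genes higher and 4.77% lower. Cacna1c was 3.16-fold higher (3.10 to 3.23). It had 1396, 2557, 2510, 2480, 1874 and 2110 CPM in CA2/CA3 neurons of sets 1 to 6, against 274, 855, 874, 782, 493 and 624 CPM in CA1 neurons. The groups did not overlap, and the ratio in single sets ran from 2.87 to 5.10.

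Cacna1a was 2.24-fold higher in CA2/CA3 neurons (2.20 to 2.29), with 1690, 1755, 1625, 1924, 1632 and 1846 CPM in sets 1 to 6, against 749, 803, 752, 817, 798 and 743 CPM in CA1 neurons. The fold varied little, from 2.05 to 2.48. Cacna1g was 4.11-fold lower in CA2/CA3 neurons (3.44 to 4.94), with 12.1, 13.7, 12.7, 8.19, 12.7 and 11.6 CPM, against 37.5, 48.5, 48.8, 35.4, 61.1 and 70.0 CPM in CA1 neurons. Here too no set overlapped. CA2/CA3 nuclei held more UMIs than CA1 nuclei (medians of 9759 and 3713), and comparing UMIs per nucleus with no scaling raised every log2 ratio by 0.77, which left the 3 calls in place.

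The remaining 5 members were within 2-fold between these fields. Cacna1b, Cacna1d, Cacna1h and Cacna1i had ratios of 1.10, 1.07, 0.942 and 1.01. Cacna1e was 1.24-fold lower in CA2/CA3 neurons in 6 of 6 sets on the CPM scale, and 1.37-fold higher per nucleus without scaling. The auxiliary list had 2 of 13 genes at least 2-fold higher and 2 lower. Cacng5 was 5.02-fold and Cacng2, known as stargazin, 2.97-fold higher, and Cacna2d2 was 3.40-fold lower. Of 17 partner genes, 3 were higher and 2 lower, including Rims1, the scaffold that tethers release-site channels (2.23-fold higher), Rem2 (3.08-fold higher) and Kcnn3 (2.26-fold lower).

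Clusters within the fields also differed, and those named here were chosen after their values were seen. Among CA1 neurons, a cluster of 683 nuclei led by Dcn had 1164 CPM of Cacna1c, against 471 CPM in the other 2047 (2.47-fold, 2.39 to 2.56). The fold was 1.97, 2.31, 2.03, 2.75 and 2.56 in sets 2 to 6, so the difference appeared in each. Cacna1g was 1.66-fold higher and Cacna1i 1.52-fold lower in the Dcn-led cluster. Among CA2/CA3 neurons, 88 nuclei led by Ntsr2 and Amigo2, a CA2 marker, had 80.7 CPM of Cacna1h, against 34.1 CPM in the other 941 (2.37-fold, 1.83 to 3.03). Cacna1i stood at 6.37 CPM in them (6 UMIs), against 66.4 CPM in the others (741 UMIs), a 10.4-fold difference.

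Subicular- and cortical-type neurons, 1490 nuclei, were compared with 6171 hippocampal excitatory neurons of the dentate gyrus, CA1 and CA2/CA3. Of the 8 members, 1 was at least 2-fold higher and 1 lower, against 5.42% of 12416 genes higher and 5.93% lower. Cacna1c was 2.82-fold lower (2.74 to 2.89). It had 609, 578, 544, 367 and 454 CPM in subicular- and cortical-type neurons of sets 2 to 6, against 1766, 1737, 1707, 902 and 1199 CPM in hippocampal neurons, without overlap. Clustering at resolution 2 in place of 1 brought the fold to 1.45.

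Cacna1g was 2.06-fold higher (1.87 to 2.27), with 52.1, 53.7, 56.5, 65.3 and 86.2 CPM in sets 2 to 6, against 29.3, 24.8, 19.7, 47.4 and 44.9 CPM in hippocampal neurons. It lay close to the size rule, and the ratio was 1.93 without set 4, 1.92 as the median over sets, 1.92 with thinning, and 1.74 and 1.41 at resolutions 0.5 and 2. Cacna1d (1.55-fold lower), Cacna1a (1.39-fold lower) and Cacna1e (1.33-fold lower) were within 2-fold in the pooled counts and lower in 5 of 5 sets, although Cacna1d had a ratio of 0.439 in set 6. Cacna1b, Cacna1h and Cacna1i had ratios of 0.969, 0.805 and 1.02.

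Within this group, a cluster of 562 nuclei led by Fn1, a marker of subiculum, stood apart in Cacna1h, again noticed after the values were seen. It had 85.2 CPM, against 16.6 CPM in the other 928 nuclei (5.14-fold, 4.12 to 6.48). In sets 2 to 6 the Fn1-led cluster had 82.3, 70.9, 76.8, 113 and 131 CPM, against 17.3, 16.6, 15.2, 16.9 and 18.2 CPM, and the values did not overlap. Cacna1i was 2.07-fold and Cacna1g 1.78-fold higher there, and Cacna1d 1.76-fold lower.

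In the auxiliary list, 2 of 13 genes were at least 2-fold higher in subicular- and cortical-type neurons and 2 lower. Cacna2d2 was 4.78-fold higher, the beta subunit Cacnb4 2.56-fold higher (760 CPM, against 297 CPM in hippocampal neurons) and Cacnb2 2.41-fold lower (934 CPM against 2254 CPM). In the partner list 1 of 18 was higher, Stac2 at 2.60-fold, and 3 were lower, with Rem2 at 3.42-fold and Erc2 at 2.07-fold.

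Among interneurons, 718 of the Sst or Pvalb type were set against 351 of the Adarb2 type. Of 7 members with at least 100 UMIs, 1 was at least 2-fold higher and none lower, against 4.83% of 7823 genes higher and 3.34% lower. Cacna1a was 2.59-fold higher (2.42 to 2.76), with 1228, 1313, 1197 and 1216 CPM in sets 2, 3, 5 and 6, against 510, 535, 440 and 438 CPM in Adarb2-type interneurons. No set overlapped.

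Cacna1i had a pooled ratio of 1.89 (1.27 to 2.90), from 139 UMIs in Sst or Pvalb interneurons and 30 in Adarb2-type interneurons. Each of the 4 sets with enough nuclei gave a ratio of 2.07 to 7.78, and it passed 2-fold in 6 alternatives, 2 of which left out set 1 (2.03) or set 4 (2.40). Cacna1c (1.61-fold) and Cacna1b (1.40-fold) were lower in Sst or Pvalb interneurons in 4 of 4 sets. Cacna1e (1.57-fold) and Cacna1g (1.499-fold) were lower in the pooled counts and in 3 of 4 sets. Their ratios in single sets ran from 0.431 to 1.71 and from 0.477 to 1.17. Cacna1d had a ratio of 1.06. Cacna1h had 27 UMIs in Sst or Pvalb and 36 in Adarb2-type interneurons. When each unnamed cluster joined its best class, the Cacna1a ratio was 1.99 and that of Cacna1e 2.29. The Cacna1h ratio was then 1.02, against 0.306 in the main setting. The Sst or Pvalb side took in 806 nuclei led by Baiap3, Resp18 and Scg2, of which 693 were in set 1. That cluster had under 3 high markers.

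Of 12 measured auxiliary genes, 2 were at least 2-fold higher in Sst or Pvalb interneurons and 2 lower. Cacna2d2 was 7.01-fold higher (279 CPM, against 39.7 CPM in Adarb2-type interneurons) and Cacng3 2.89-fold higher, while Cacna2d1 was 2.68-fold lower. Among 15 partner genes, 2 were higher and 2 lower, with Stac2 3.21-fold higher and the potassium channel genes Kcnn3 and Kcnn2 4.91-fold and 3.71-fold lower.

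Outside neurons, oligodendrocyte precursors, dividing glia that receive synapses, were compared with the oligodendrocytes they give rise to. All 5 members with at least 100 UMIs were at least 2-fold higher in the 352 precursors than in 2499 oligodendrocytes, against 15.4% of 7268 genes higher and 16.8% lower. Cacna1d was 16.5-fold higher (13.4 to 20.5), Cacna1e 12.002-fold (10.1 to 14.4), Cacna1a 6.85-fold, Cacna1b 6.46-fold and Cacna1c 5.03-fold (4.57 to 5.54). Cacna1d had 281, 462, 482 and 426 CPM in precursors of sets 1, 2, 5 and 7, against 9.39, 30.3, 53.1 and 15.5 CPM in oligodendrocytes. The values did not overlap in any of the 4 sets. Cacna1g, Cacna1h and Cacna1i had 27, 24 and 12 UMIs in precursors and 8, 20 and 10 in oligodendrocytes. Most of the other neuronal genes used below to gauge free RNA were also higher in precursors. Grin2a had 733 CPM there, against 84.1 CPM in oligodendrocytes, Syt1 847 against 132 and Grin2b 491 against 97.2. Nrgn alone was lower in precursors, at 57.3 against 70.5 CPM. The part of free RNA in the members' ratios was not tested. When each unnamed cluster joined its best class, none of the 5 members was 2-fold higher, and Cacna1b was 1.03-fold lower. The oligodendrocyte side then took in the 514 nuclei led by Inpp5d and 64 nuclei with markers mixed with those of precursors.

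Of 8 measured auxiliary genes, 5 were at least 2-fold higher in precursors and 1 lower, and of 11 partner genes 6 were higher and none lower. Cacng4 had 654 UMIs in precursors and 10 in oligodendrocytes, a 238-fold difference (128 to 498). Cacng8 was 13.5-fold and Cacnb2 10.8-fold higher. The release-site scaffolds Rims1, Rimbp2 and Erc2 were 20.2-fold, 15.6-fold and 13.5-fold higher.

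Free RNA from neurons can reach glial droplets, so glial levels were set beside those of 7 other neuronal genes (Camk2a, Grin2a, Grin2b, Nrgn, Slc17a7, Snap25 and Syt1). As a percent of the neuron level, those 7 genes had a median of 21.8% in precursors (18.1 to 42.5), 12.8% in astrocytes (10.8 to 86.4), 10.2% in microglia (8.36 to 53.9) and 3.89% in oligodendrocytes (2.50 to 52.3). Nrgn was the highest of the 7 in all 4 glial classes. In precursors, Cacna1d was at 68.4% of its neuron level, Cacna1c at 67.3%, Cacna1g at 60.1% and Cacna1a at 52.3%, above all 7. The Cacna1g value came from 27 UMIs, and its interval overlapped those of Nrgn and Snap25. The interval of Cacna1a overlapped that of Nrgn. Cacna1h (39.2%), Cacna1e (34.9%), Cacna1b (25.6%) and Cacna1i (22.5%) were within the range of the 7 genes. The top of that range was set by Nrgn (42.5%) and Snap25 (42.1%). The other 5 genes lay at 18.1 to 22.5%, which Cacna1h, Cacna1e and Cacna1b exceeded, Cacna1b with an interval that overlapped theirs. In oligodendrocytes all 8 members lay between 2.91 and 13.4%, Cacna1c highest, within the range of the 7 genes. Without Nrgn, the top of the range there was Slc17a7 at 13.2%.

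Microglia had 1 member above that range. Cacna1d was at 64.1% of its neuron level (382 CPM from 226 UMIs), with 163, 284, 428 and 515 CPM in sets 1 to 4. Cacna1a was at 21.8%, above all of the 7 genes but Nrgn, the next being Snap25 at 18.6% with an overlapping interval. Cacna1e was at 10.7%, Cacna1c at 9.52% and Cacna1b at 5.59%. Astrocytes had Cacna1h at 36.3% (6 UMIs), Cacna1d at 34.6% (69 UMIs) and Cacna1g at 33.0% (4 UMIs). These were above all of the 7 but Nrgn, the next being Slc17a7 at 24.4%, whose interval overlapped theirs. Cacna1a was at 22.2% in astrocytes and Cacna1c at 10.1%. In set 1, the only set with at least 50 astrocytes, Cacna1d had 203 CPM and Cacna1c 18.5 CPM. In all astrocytes they had 206 and 123 CPM. The part of free RNA in these levels was not tested.

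**Figure D5:**
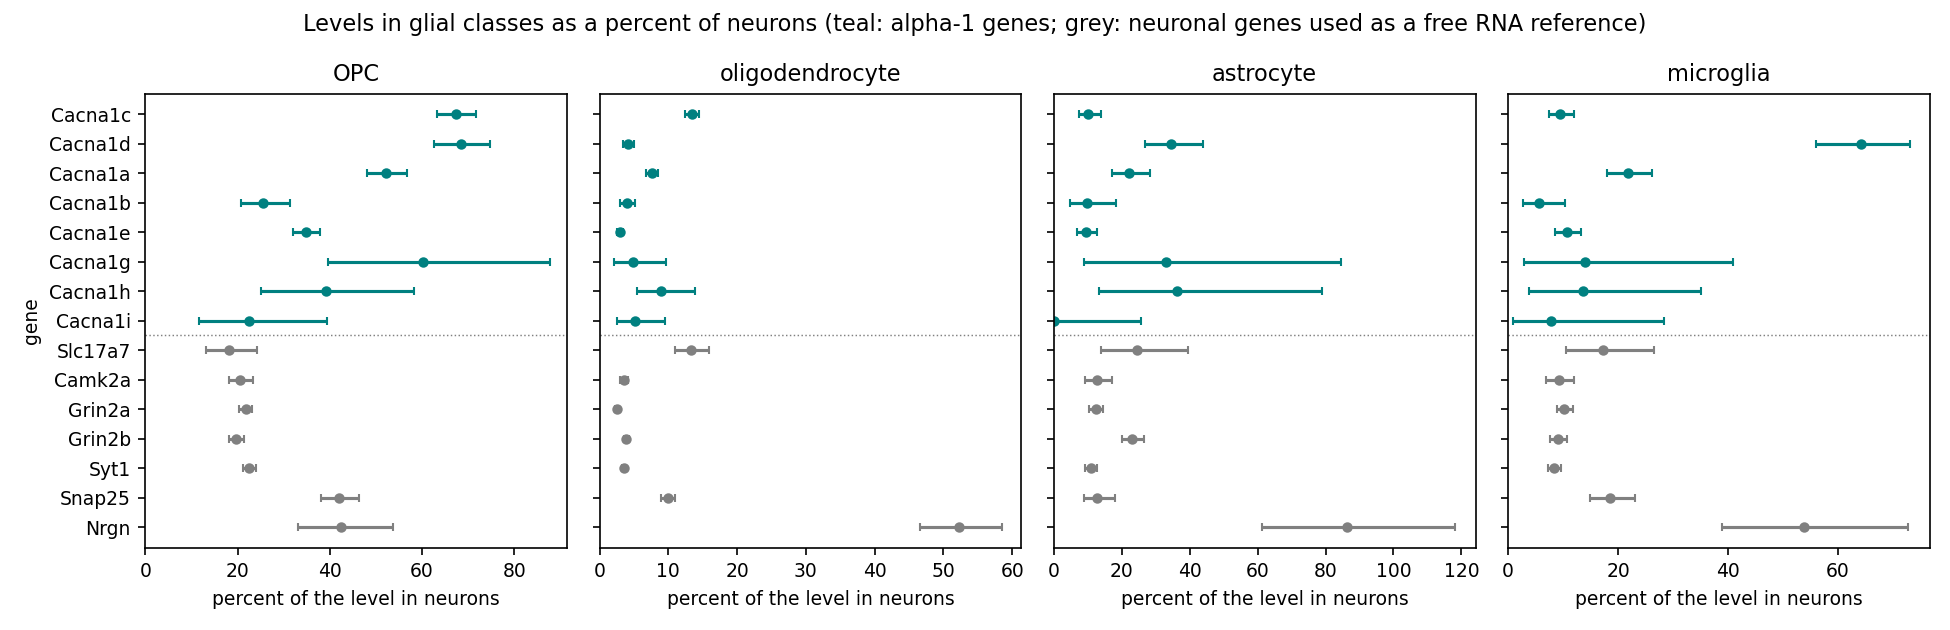
Level in 4 glial classes as a percent of the level in neurons, with teal points for alpha-1 genes and grey points for 7 other neuronal genes taken as a measure of free RNA. Cacna1d in precursors (68.4%) and in microglia (64.1%) lies above every grey point of its class. In microglia its interval overlaps that of Nrgn.

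Patterns across the 14 classes were compared as Pearson correlations of log2(CPM + 1), given as descriptions only, since the classes share libraries and differ in depth. Within the family, Cacna1a and Cacna1b were most alike (r = 0.880) and Cacna1g and Cacna1h least alike (r = 0.244). Among 10246 genes outside the calcium channel lists, the closest to Cacna1d was Slc9a7 (0.981), to Cacna1b Shank1 (0.979), to Cacna1e Celf2 (0.955) and to Cacna1i Gba2 (0.948). The closest to Cacna1g was Syngr3 (0.944), to Cacna1c Cnrip1 (0.934), to Cacna1a Arntl2 (0.928) and to Cacna1h Baiap2 (0.902). Next in likeness, among the genes reported here, were Shfl and Cers6 for Cacna1d, Adar for Cacna1b, Deaf1 and Ica1l for Cacna1e, and Tdrd5 and Begain for Cacna1i. Those for Cacna1g were Hs6st2 and St6gal2, for Cacna1c Ppfia2, for Cacna1a Abhd8 and Srrm3, and for Cacna1h Zfp46 and Unc5a.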

How the data were processed

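Nuclei from frozen tissue were stained with 7AAD and sorted before 3′ droplet libraries, per the labels' protocols. The deposited values are UMI counts per gene and barcode, made with Cell Ranger 4.0.0 per the file headers and the submitters' processing notes, which name mm10 and GRCm38. The deposited gene and barcode lists hold no measurement.

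The members and lists were chosen with earlier results of these data known. Nuclei were kept from 500 UMIs and 300 genes up and below 5% mitochondrial UMIs, which removed 108 barcodes. Scrublet in scanpy 1.11.5 called 306 doublets (1.97%), which were removed. In sets 2, 5 and 7 it marked under 0.5% and is not taken to have worked.

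Up to 2000 variable genes and the markers, without calcium channel genes, gave 30 components, 15 neighbours and Leiden clusters at resolution 1 (leidenalg 0.10.2). Markers were fixed earlier, and the naming rule was built while looking at clusters, before members' values by class were computed. A name needed 3 high markers. Mossy cells (44 nuclei) and vascular cells (28) entered no ordering of classes.

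UMIs were summed per class and scaled to 1000000. Ratios have exact 95% intervals for a pair of Poisson counts. They were tried on counts simulated from the same Poisson model, which holds no spread between barcode sets. Genes with at least 100 UMIs over both sides were counted. Named genes were the 8 members, up to 3 genes of the auxiliary and partner lists per comparison with the largest absolute log2 ratio, and the 3 genes most like each member among those with at least 500 UMIs. Some of these like genes are not reported here. Alternatives were thinning, no scaling, a median over sets, leaving out sets, a minimum of 1000 UMIs, doublets kept, other resolutions and unnamed clusters in their best class.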

Additional observations from a re-analysis of the deposited data

Results flagged for a closer look

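A group of 36 nuclei that stayed unnamed and entered no comparison, led by the transcription factor genes Ebf2 and Ebf3, had more Cacna1i than any named class. Its level was 162 CPM (111 to 227, from 33 UMIs), against 61.7 CPM in CA2/CA3 neurons, the highest of the 14 classes of at least 50 nuclei (2.63-fold). The 44 mossy cells, a smaller named class, had 86.7 CPM (68.5 to 108). Of the 36 unnamed nuclei, 29 came from barcode set 1, so this group and the set cannot be told apart.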

How the results depend on the processing

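No paired analysis was possible because all nuclei form 1 sample and the columns carry no replicate number. Of 896 recomputed ratios of single members, 661 stayed within the counting interval, and 25 changed sign, of which 3 did so without scaling. Without scaling, all log2 ratios of a comparison shifted by 1.97 for neurons, 0.97 for precursors, 0.77 for CA2/CA3 neurons, −0.27 for granule neurons and 0.26 for Sst or Pvalb interneurons. At resolution 0.5 no cluster was named CA2/CA3, so CA2/CA3 against CA1 gave no value, hippocampal neurons lacked that field, and granule neurons, set against CA1 alone, had 2 members at least 2-fold higher (Cacna1c joined). For subicular- and cortical-type neurons, 0 members were at least 2-fold higher with thinning, as a median over sets and at resolutions 0.5 and 2, and 0 were lower at resolution 2. For Sst or Pvalb interneurons, 2 members were higher with thinning, without scaling, as a median over sets and with unnamed clusters in their best class. There, 1 was lower with thinning (Cacna1g, 2.07-fold) and 1 without barcode sets 2, 5 and 7 (Cacna1e, 2.17-fold), an exclusion chosen after seeing the data. With unnamed clusters in their best class, 0 of the 5 members with at least 100 UMIs in precursors and oligodendrocytes were 2-fold higher in precursors, the log2 ratio of Cacna1b there was −0.046, and the ratio of Cacna1i in excitatory over inhibitory neurons was 1.92. Leaving out 1 barcode set at a time gave 0 to 1 members higher in subicular- and cortical-type neurons, 1 to 2 in Sst or Pvalb interneurons, 3 to 4 in excitatory neurons, and 2 to 3 lower in granule neurons. Other counts held within 1.5 times. The class with the highest level was the same in 39 of 48 recomputations. Apart from the missing field at resolution 0.5, the causes were not tested.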

Other observations

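Mossy cells and vascular cells were too few for the ordering of classes. The 44 mossy cells, which are hilar excitatory neurons, had 1861 CPM of Cacna1c (1773 to 1952), 1187 CPM of Cacna1a and 390.2 CPM of Cacna1b. Their Cacna1e level, 446 CPM (403 to 492), was below that of every excitatory class described above, and Cacna1i stood at 86.7 CPM (68.5 to 108). The 28 vascular cells had 1074 CPM of Cacna1c (799 to 1412, from 51 UMIs), the L-type subunit of smooth muscle. Cacna1a and Cacna1d had 2 UMIs each in them, Cacna1e 4, Cacna1h 3 and Cacna1g 1, and Cacna1b and Cacna1i none, which allows up to 63.2 CPM by a floor of 3 counts.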
